A study of Mus musculus with 5 samples.

Results

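Isolated H3K9me3 regions are the regions of the deposited table that stand alone on their chromosome. On chromosomes 1 to 19, a region was taken as isolated when no other region of the table lay within 100 kb on either side. The outermost region at each chromosome end was left out. The rule uses positions and no count. The sources used here do not say from which libraries the regions were called, so isolation may still depend on the counts. This was not tested. The rule selected 1729 of the 46409 regions, and the other 44680 regions served for comparison. Of the 46409 regions, 44132 lie on chromosomes 1 to 19, so the comparison regions include some on other chromosomes.

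H3K9me3 was profiled by CUT&Tag, in which an antibody to the mark guides a transposase that tags the DNA of marked chromatin. Both groups were CD8+ T cells taken from the spleen of OTI:Cas9 transgenic mice by magnetic beads, so the control cells carry the Cas9 transgene too. The sgPrdm12 group (2 libraries, Prdm12-ko in the labels) was electroporated with Cas9 ribonucleoprotein holding a guide to Prdm12. The sgNTC group (2 libraries, Prdm12-wt in the labels) received a non-targeting guide in the same way. Guide and Cas9 were used at 300 pmol each, and cells recovered for 72 hours. Edited cells were not selected, as far as the labels say, so unedited cells can be in the sgPrdm12 libraries. The labels place replicate 1 of each group in batch 1 and replicate 2 in batch 2. The sources used here do not say whether separate animals gave the libraries. The p-values thus cover the spread among these 4 libraries alone, and that spread may be technical.

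H3K9me3 marks silent chromatin. The SUV39H and SETDB1 enzymes write it, and heterochromatin protein 1 binds it. It is known from broad domains over satellite repeats, retroelements and zinc finger gene clusters, while promoters rich in CpG usually lack it. PRDM12, the protein of the targeted gene, belongs to the PRDM family of zinc finger proteins and is known from the development of pain-sensing neurons. No isolated region lay within 5 kb of Prdm12, and the mark does not measure editing of a gene.

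Among the promoter and gene classes compared below, isolated regions at a CpG-rich promoter had the lowest median fold change of sgPrdm12 over sgNTC. The letters of such promoters are therefore shown before the values. The RefSeq promoter table for GRCm38.p6 gives 300 bases per start site, from 250 bases before it to 50 after it. Of the 1676 isolated regions on chromosomes with windows in that table, 87 overlapped a window. A region was called CpG-rich when the window with the most CpG among those it overlapped held at least 20. This limit was chosen after the data were seen. It gave 60 CpG-rich and 27 CpG-poor isolated promoter regions. The first 6 sequences belong to the 6 isolated promoter regions that passed the test as lower in sgPrdm12. The Gm30927 window is shown as a contrast, because its region had the highest log2 fold change of the tested isolated promoter regions, and the Cuzd1 window as an example with few CpG. Letters run 5′ to 3′ on the strand named, and capitals mark CG.
Parp2 promoter window, chr14:50807666-50807965, plus strand: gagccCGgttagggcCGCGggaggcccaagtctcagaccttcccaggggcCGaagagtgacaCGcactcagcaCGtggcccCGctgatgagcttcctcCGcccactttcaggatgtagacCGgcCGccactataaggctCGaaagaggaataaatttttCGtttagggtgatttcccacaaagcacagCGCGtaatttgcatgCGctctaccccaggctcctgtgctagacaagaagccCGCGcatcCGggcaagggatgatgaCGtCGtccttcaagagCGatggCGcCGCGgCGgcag
Nfya promoter window, chr17:48409705-48410004, minus strand: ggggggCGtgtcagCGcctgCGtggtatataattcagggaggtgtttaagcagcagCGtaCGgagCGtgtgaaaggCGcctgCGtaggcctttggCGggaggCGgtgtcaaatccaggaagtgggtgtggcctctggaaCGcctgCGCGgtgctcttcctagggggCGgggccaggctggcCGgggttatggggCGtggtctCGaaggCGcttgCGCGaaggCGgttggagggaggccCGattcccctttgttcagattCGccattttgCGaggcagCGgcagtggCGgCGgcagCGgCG
Siva1 promoter window, chr12:112644578-112644877, plus strand: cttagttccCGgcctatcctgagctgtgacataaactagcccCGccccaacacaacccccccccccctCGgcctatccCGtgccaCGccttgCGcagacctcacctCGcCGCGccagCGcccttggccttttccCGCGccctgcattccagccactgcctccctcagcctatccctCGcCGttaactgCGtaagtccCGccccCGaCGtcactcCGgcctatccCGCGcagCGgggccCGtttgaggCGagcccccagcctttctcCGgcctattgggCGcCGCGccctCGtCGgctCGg
Khsrp promoter window, chr17:57031458-57031757, minus strand: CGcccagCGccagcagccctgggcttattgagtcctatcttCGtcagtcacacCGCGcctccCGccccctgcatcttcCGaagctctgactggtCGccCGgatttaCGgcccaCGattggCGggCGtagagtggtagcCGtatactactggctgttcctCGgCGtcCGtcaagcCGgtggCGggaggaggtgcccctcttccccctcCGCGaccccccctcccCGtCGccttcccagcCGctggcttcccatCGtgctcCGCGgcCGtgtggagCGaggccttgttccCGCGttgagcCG
4932412D23Rik promoter window, chr16:42875713-42876012, minus strand: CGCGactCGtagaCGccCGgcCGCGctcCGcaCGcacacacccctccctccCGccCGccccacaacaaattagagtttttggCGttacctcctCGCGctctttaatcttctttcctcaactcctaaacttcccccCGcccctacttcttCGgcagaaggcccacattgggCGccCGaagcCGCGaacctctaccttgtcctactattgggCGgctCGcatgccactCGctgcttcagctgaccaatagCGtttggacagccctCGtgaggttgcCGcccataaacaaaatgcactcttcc
Rab40c promoter window, chr17:25919665-25919964, minus strand: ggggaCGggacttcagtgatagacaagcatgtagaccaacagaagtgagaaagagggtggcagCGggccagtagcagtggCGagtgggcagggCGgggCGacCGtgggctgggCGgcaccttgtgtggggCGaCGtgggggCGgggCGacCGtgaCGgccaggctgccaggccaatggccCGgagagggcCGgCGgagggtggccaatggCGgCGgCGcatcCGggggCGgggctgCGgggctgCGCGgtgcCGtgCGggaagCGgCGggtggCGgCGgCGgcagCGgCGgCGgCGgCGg
Gm30927 promoter window, chr11:53979781-53980080, plus strand: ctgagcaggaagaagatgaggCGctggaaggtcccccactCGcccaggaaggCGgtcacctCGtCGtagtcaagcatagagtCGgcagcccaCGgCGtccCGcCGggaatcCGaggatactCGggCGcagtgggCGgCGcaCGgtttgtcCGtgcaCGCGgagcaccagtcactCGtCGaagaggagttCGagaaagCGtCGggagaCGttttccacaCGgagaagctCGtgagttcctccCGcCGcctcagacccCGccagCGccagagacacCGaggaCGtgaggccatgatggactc
Cuzd1 promoter window, chr7:131322243-131322542, minus strand: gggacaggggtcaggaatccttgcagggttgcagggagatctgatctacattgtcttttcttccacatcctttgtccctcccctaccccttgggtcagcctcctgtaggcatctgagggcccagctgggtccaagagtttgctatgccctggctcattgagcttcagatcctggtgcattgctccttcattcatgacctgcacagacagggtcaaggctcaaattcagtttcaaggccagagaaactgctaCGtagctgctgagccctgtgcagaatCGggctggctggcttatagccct

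Parp2 holds 25 CG in its window, Nfya 29, Siva1 31, Khsrp 32, 4932412D23Rik 26 and Rab40c 36. Gm30927 holds 33 and Cuzd1 2. The lower regions and Gm30927 overlapped in this number. All windows that the isolated regions overlapped were then searched for short motifs on both strands. The 105 windows held a median of 24 CG, against 18 in the 640 windows overlapped by other regions and 7 in all 32851 windows of the table. At least 20 CG were found in 68.6% of the isolated windows, 44.5% of the other windows and 26.5% of all windows. GGGCGG, the letters of a GC box, was found in 79.0%, 57.3% and 35.7% of these 3 sets. It contains a CG, so it is not independent of the CG count. CCAAT was found in 54.3%, 42.7% and 37.4%, and TATAAA in 5.71%, 9.06% and 13.6%. A match describes the letters of a window and does not show that a factor binds there.

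Isolated regions lay closer to genes than the other regions did. Of the isolated regions, 269 (15.6%) lay at the end of a protein-coding gene, that is, within 3 kb of either end of its span, against 6.03% of the other regions. The body of a protein-coding gene held 625 (36.1%), against 22.5%. Another kind of gene held 149 (8.62%), against 9.03%. The remaining 686 (39.7%) were intergenic, against 62.5% of the other regions. The gene table used here gives spans and no exons, so exons, introns and UTRs were not told apart.

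**Figure D1:**
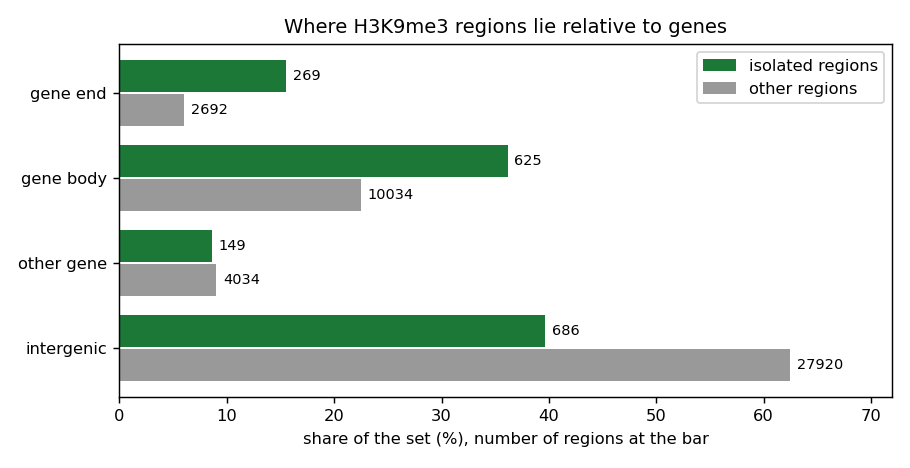
Share of isolated regions (green) and of other regions (grey) in each class relative to genes, in percent of the set, with the number of regions at each bar. Isolated regions had the larger share at gene ends (15.6% against 6.03%) and in gene bodies (36.1% against 22.5%), and the smaller share between genes (39.7% against 62.5%).

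Start sites showed the same difference in place. A promoter window was overlapped by 5.19% of the isolated regions, against 1.28% of the other regions. A start site lay within 10 kb of 28.1% of the isolated regions and of 13.2% of the others. The median distance to a start site was 24155 bp for isolated regions and 78263.5 bp for the others. Only 10.9% of isolated regions had no protein-coding gene within 100 kb, against 43.4% of the others. These shares count regions and involve no replicates, so no test was made on them.

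Isolated regions were about as wide as the rest, with a median of 286 bp (174 to 2151) against 281 bp. The nearest other region was at a median of 152840 bp, and at 944644 bp for the most isolated. Their share of the regions of a chromosome ran between 2.5% on chromosome 3 (82 of 3280) and 10.3% on chromosome 19 (75 of 725). Chromosome 11 came next, with 6.30%.

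Library totals over all regions were 2353807 and 1396201 counts for sgPrdm12-1 and sgPrdm12-2, and 843673 and 1060646 for sgNTC-1 and sgNTC-2. An isolated region held a median of 28 and 15 counts in the sgPrdm12 libraries and of 7 and 8 in the sgNTC libraries. A count of 0 was found at 0 and 28 isolated regions in sgPrdm12 and at 53 and 37 in sgNTC. Most isolated regions thus rest on few reads in sgNTC. Per length, in CPM per kb on the TMM scale explained below, the median isolated region stood at 34.4 and 31.6 in sgPrdm12 and at 34.7 and 35.0 in sgNTC. The medians of the other regions were 38.9 and 36.8 in sgPrdm12 and 35.1 and 36.2 in sgNTC. The isolated medians lay below those of the other regions in each library, by the most in sgPrdm12.

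Across the 1729 isolated regions, log CPM had a Spearman correlation of 0.456 between the sgPrdm12 libraries and 0.541 between the sgNTC libraries. Between groups it was 0.438 to 0.494. Regions of a pair share depth and width, so these values are a description. Some pairs of libraries from opposite groups thus had a higher value than the sgPrdm12 pair.

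Isolated regions took a smaller share of the counts in sgPrdm12. They held 3.64% (exact 95% binomial interval 3.62 to 3.67) and 3.55% (3.52 to 3.58) of all counts in sgPrdm12, against 4.60% (4.55 to 4.64) and 4.45% (4.41 to 4.49) in sgNTC. The intervals cover counting error only. The groups did not overlap, but 2 libraries against 2 cannot give a permutation p below 0.05, so none is given. The difference depends on a few heavily covered regions. The 6 most covered isolated regions held 31.1% and 34.4% of the isolated counts in sgPrdm12, against 55.1% and 58.9% in sgNTC. The remaining isolated regions held 2.51% and 2.33% of all counts in sgPrdm12, against 2.07% and 1.83% in sgNTC, so without those 6 the direction turned. The 10 most covered regions of the whole table took a larger part of the totals in sgNTC. Without those 10 the totals were 1919586 and 1084018 counts in sgPrdm12, and 507796 and 594172 in sgNTC. Of these totals the remaining isolated regions held 3.08% and 3.00% in sgPrdm12, against 3.43% and 3.27% in sgNTC. The direction of this share therefore depends on which few regions are counted.

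The next comparison asked which isolated regions differ in H3K9me3 after targeting of Prdm12. Counts of the whole table were compared with edgeR's quasi-likelihood test after scaling by TMM factors, and p-values were adjusted over all 37390 regions tested. Values of a region are CPM, that is, counts per 1e6 of the scaled library total, and a fold change is log2 of sgPrdm12 over sgNTC. The scale sets where 0 lies. The 1295 tested isolated regions had a median of -0.24 on the TMM scale, beside -0.01 for all tested regions. Scaled by total counts the medians were 0.33 and 0.56, and scaled by the authors' constant per library 0.77 and 1.00. On each of the 3 scales the isolated median lay 0.23 below the median of all regions. A change of scale moves all regions by nearly the same amount, so this distance had to stay and is no check. Changes below are relative to the median region.

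Of the 1295 tested isolated regions, 3 were higher and 23 lower in sgPrdm12 at an adjusted p under 0.05. An unadjusted edgeR p under 0.05 was found at 154 of the 1295, beside 2399 of all 37390 regions tested. In all regions tested, 0.11% were higher and 0.377% lower, together 0.487%. In isolated regions the shares were 0.232% higher and 1.78% lower, together 2.01%. Over all 1729 isolated regions, with no filter on counts, the median was -0.17, against 0.03 in the other regions. Within batch 1 the isolated median was -0.04 beside 0.11 for all regions, and within batch 2 it was -0.17 beside 0.02. The libraries of the groups did not overlap, with sgPrdm12 below sgNTC, at 385 isolated regions (22.3%), beside 14.2% of all regions. They did not overlap, with sgPrdm12 above, at 264 (15.3%), beside 19.9% of all regions. Scaled by total counts 25 isolated regions were higher and 15 lower, and scaled by the authors' constants 203 and 13. The count of lower regions fell to 4 without sgNTC-1 and to 10 without sgNTC-2, and that of higher regions to between 0 and 2 without any of the 4 libraries. The difference between isolated and other regions was itself not tested.

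The regions on either side of the distance limit are given as a description. The 220 isolated regions whose nearest neighbour lay 100 to 110 kb away had a median of -0.06 with no filter. The 299 regions just short of the limit, with 90 to 100 kb, had -0.13. Over the whole table the median went down with distance, in bins chosen after the data were seen. It was 0.18 for regions with a neighbour within 1 kb, 0.07 at 1 to 10 kb, 0.01 at 10 to 25 kb, -0.02 at 25 to 50 kb and -0.10 at 50 to 100 kb. In the isolated regions it was -0.17 at 100 to 200 kb and -0.20 beyond 200 kb. Width moves with the value as well. Tested isolated regions of at most 250 bp had a median of -0.53, and those over 500 bp had 0.08, beside -0.12 and 0.18 in other regions of these widths. With no filter, which keeps the 300 narrow isolated regions that were not tested, the isolated medians were -0.21 and 0.04. The part of width in the result was not tested.

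**Figure D2:**
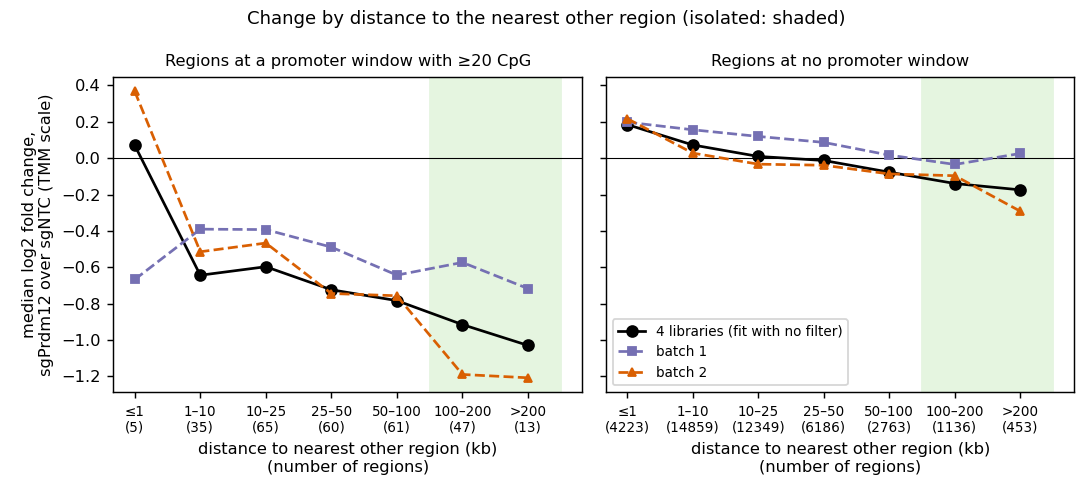
Median log2 fold change (sgPrdm12 over sgNTC, TMM scale, no filter) of regions by distance to the nearest other region in kb, for regions at a promoter window with at least 20 CpG (left) and at no promoter window (right), with the number of regions under each bin and the isolated bins shaded. Black circles use the 4 libraries, squares batch 1 and triangles batch 2; at CpG-rich promoters the median was -0.91 at 100 to 200 kb and -1.03 beyond 200 kb, and elsewhere it stayed between 0.18 and -0.17.

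Among the promoter and gene classes compared, isolated regions at CpG-rich promoters had the lowest median fold change. Per length, the median of the 60 regions was 49.4 and 35.8 CPM per kb in sgPrdm12, against 72.2 and 79.6 CPM per kb in sgNTC. Their median log2 fold change was -0.96 with no filter, and 54 of 60 (90%) lay below 0, beside 48.3% of all regions. In both batches 43 of 60 lay below 0, and 4 lay above. No share over all regions is given for these counts by batch. The median was -0.63 in batch 1 and -1.20 in batch 2. The groups did not overlap, with sgPrdm12 lower, at 34 of the 60 (56.7%), beside 14.2% of all regions. They did not overlap, with sgPrdm12 higher, at 4 (6.67%), beside 19.9% of all regions. Of the 58 tested, 6 (10.3%) were lower by edgeR, beside 0.377% of all regions tested, and 0 were higher. An unadjusted edgeR p under 0.05 was found at 25 of the 58, beside 2399 of all 37390. DESeq2's Wald test called 0 higher and 5 lower, and limma-voom 0 higher and 3 lower. Much of this was shared by CpG-rich promoter regions that were not isolated, as given below.

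The share of all counts held by these 60 regions was 0.108% and 0.0751% in sgPrdm12, against 0.162% and 0.122% in sgNTC. The groups did not overlap. The region at Rpph1 alone held 341 of their 1368 counts in sgNTC-1 and 83 of 1295 in sgNTC-2. In sgPrdm12 it held 142 of 2532 and 0 of 1049, so the size of this difference rests in part on that region. The direction of the median depends on the scale, since total counts gave -0.39 and the authors' constants 0.05. Relative to the median of all regions it was -0.95 on both, a distance that a change of scale leaves nearly unchanged. Leaving out a library gave medians between -1.30 and -0.87, with 8 lower regions without sgPrdm12-1, 3 without sgPrdm12-2, 2 without sgNTC-1 and 3 without sgNTC-2.

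The other promoter sets lay closer to 0. The 27 CpG-poor isolated promoter regions had a median of -0.64 with no filter, and 0 of the 23 tested passed in either direction by edgeR, with 4 at an unadjusted p under 0.05. Limma-voom also called 0, and DESeq2 gave none of the 27 an adjusted p. Away from isolated places, the 240 CpG-rich promoter regions had -0.65, with 0 higher and 7 lower (3.21%) of 218 tested, and the 314 CpG-poor ones had -0.06. Of the 240, 75.4% lay below 0, and at 117 (48.75%) the groups did not overlap, with sgPrdm12 lower. With sgPrdm12 higher, the groups did not overlap at 14 (5.83%). An unadjusted edgeR p under 0.05 was found at 78 of the 218. The 1589 isolated regions at no promoter window had -0.15, with 3 higher and 15 lower of 1177 tested, beside 0.04 in the 42666 other regions of this kind. Of those others, 37 were higher and 104 lower of 34396 tested. Distance and promoter thus both moved with the value. At CpG-rich promoters the medians were -0.64 at 1 to 10 kb (35 regions), -0.60 at 10 to 25 kb (65), -0.72 at 25 to 50 kb (60), -0.78 at 50 to 100 kb (61), -0.91 at 100 to 200 kb (47) and -1.03 beyond 200 kb (13).

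**Figure D3:**
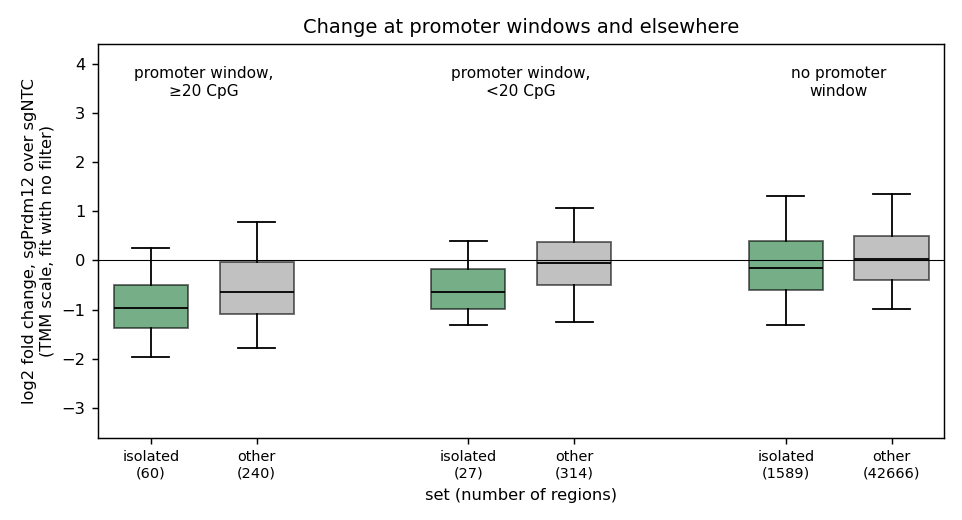
Log2 fold change (sgPrdm12 over sgNTC, TMM scale, no filter) of isolated (green) and other (grey) regions at promoter windows with at least 20 CpG, at promoter windows with fewer, and at no promoter window, with the number of regions in brackets. Boxes span the quartiles with the median as a line, and whiskers reach the 5th and 95th percentiles; the medians of isolated regions, -0.96, -0.64 and -0.15, each lay below those of the other regions, -0.65, -0.06 and 0.04.

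The lowest promoter value was at Rpph1, the gene of the RNA part of the nuclease RNase P, which lies next to Parp2, a gene of DNA repair. The region at chr14:50807452-50807710 lies within the span of Rpph1 and reaches the Parp2 window printed above. It held 142 and 0 counts in sgPrdm12, against 341 and 83 in sgNTC, which is 50.3 and 0 CPM in sgPrdm12 and 497 and 106 CPM in sgNTC. The count of 0 allows up to 3 counts, or 0.000215% of that library. Both sgPrdm12 libraries lay below both sgNTC libraries, and replicates differed widely within each group. The difference on the log2 scale was -3.45 (SE 0.46, edgeR adjusted p = 9.77e-08), with -3.27 within batch 1 and -6.29 within batch 2. The call was lost when sgNTC-1 was left out, and in limma-voom and DESeq2's Wald test. RNase P RNA has related copies in the genome, so reads can be shared between them and the value is uncertain. Rprl2, an RNase P RNA-like gene at chr3:22251224-22251594, held 70 and 29 counts in sgPrdm12, against 63 and 31 in sgNTC, which is 24.8 and 18.9 CPM in sgPrdm12 and 91.8 and 39.5 CPM in sgNTC. Its value was -1.55 (SE 0.37, edgeR adjusted p = 0.0199), and it passed in 4 of the 12 alternative fits. The call was lost when sgNTC-1, sgNTC-2 or sgPrdm12-2 was left out, and by limma-voom. It was lost too with DESeq2 size factors, total counts, the authors' constants and TMM without the 10 most covered regions.

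The region at chr17:48409808-48410074 covers the divergent starts of Nfya, which encodes a subunit of the CCAAT-binding factor NF-Y, and Oard1, an ADP-ribosyl hydrolase gene. It held 34 and 12 counts in sgPrdm12, against 59 and 28 in sgNTC, which is 12.1 and 7.82 CPM in sgPrdm12 and 86 and 35.7 CPM in sgNTC. Both sgPrdm12 libraries were lower than both sgNTC libraries, by -2.55 on the log2 scale (SE 0.42, edgeR adjusted p = 2.17e-05). The call was lost without sgNTC-1 and with no other alternative fit. The region at chr12:112644519-112644824 covers starts of the predicted lncRNA Gm30101 and overlaps the promoter window of Siva1, a gene of apoptosis. It held 47 and 18 counts in sgPrdm12, against 56 and 54 in sgNTC, which is 16.7 and 11.7 CPM in sgPrdm12 and 81.6 and 68.9 CPM in sgNTC, and replicates were close within each group. Its value was -2.37 (SE 0.37, edgeR adjusted p = 1e-05), with -2.20 within batch 1 and -2.42 within batch 2. Among the 26 isolated regions that passed, this was the 1 that also passed in all 12 alternative fits.

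The other 3 lower promoter regions passed in 5 of the 12 alternative fits each. At Khsrp, which encodes an RNA-binding protein of mRNA decay, the region at chr17:57031528-57031870 held 42 and 12 counts in sgPrdm12, against 14 and 54 in sgNTC, which is 14.9 and 7.82 CPM in sgPrdm12 and 20.4 and 68.9 CPM in sgNTC. The groups did not overlap, but the value of -1.93 (SE 0.44, edgeR adjusted p = 0.0114) came mainly from batch 2, with -0.42 within batch 1 and -2.93 within batch 2. It did not pass without sgNTC-2 or sgPrdm12-2. This region was named after its values were seen. In Zbtb20, a transcription factor gene, the region at chr16:42875417-42875826 covers a start of 4932412D23Rik and held 61 and 13 counts in sgPrdm12, against 37 and 43 in sgNTC, which is 21.6 and 8.47 CPM in sgPrdm12 and 53.9 and 54.9 CPM in sgNTC. Its value was -1.78 (SE 0.40, edgeR adjusted p = 0.00862). Beside Rab40c, a Rab family GTPase gene, the region at chr17:25919764-25920536 held 80 and 40 counts in sgPrdm12, against 41 and 69 in sgNTC, which is 28.4 and 26.1 CPM in sgPrdm12 and 59.8 and 88 CPM in sgNTC, with a value of -1.44 (SE 0.35, edgeR adjusted p = 0.0231). Neither the Zbtb20 nor the Rab40c region passed without sgNTC-1, sgNTC-2 or sgPrdm12-2.

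Further promoter regions, named after their values were seen except Tob1, did not pass. Dnajb9, a co-chaperone gene of the endoplasmic reticulum, had 32 and 11 counts in sgPrdm12, against 21 and 27 in sgNTC, and a value of -1.77 (edgeR adjusted p = 0.0785). Tob1, an antiproliferative gene known in resting T cells, had 54 and 13 counts in sgPrdm12, against 20 and 38 in sgNTC, and a value of -1.43 (SE 0.43, edgeR adjusted p = 0.154). Rab1a, a GTPase gene of vesicle transport, stood at -1.48 (edgeR adjusted p = 0.135), and Ap2a1, a gene of clathrin-mediated uptake, at -1.42 (edgeR adjusted p = 0.0994). At the other end, Gm30927 stood at 0.77 with 25 and 23 counts in sgPrdm12, against 6 and 4 in sgNTC (edgeR adjusted p = 0.99). Cuzd1, at -1.34, had 23 and 0 counts in sgPrdm12, against 6 and 11 in sgNTC, and did not pass (edgeR adjusted p = 0.951).

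The 6 most covered isolated regions were all lower in sgPrdm12. The deepest lies in the lncRNA gene Gm33838, at chr9:35305219-35305591, and is the 1 isolated region among the 10 most covered of the table. It held 14079 and 9572 counts in sgPrdm12, against 12822 and 16702 in sgNTC, or 5614 ± 882 CPM in sgPrdm12 and 19997 ± 1854 CPM in sgNTC (SD, n = 2 each). The sgNTC level stood far above the sgPrdm12 level in each batch, and the difference on the log2 scale was -1.83 (SE 0.21, edgeR adjusted p = 6.1e-10). Chl1, a neural adhesion gene, held a region with 2543 ± 199 CPM in sgPrdm12 and 7703 ± 1025 CPM in sgNTC (SD, n = 2 each) and a value of -1.60 (SE 0.22). An intergenic region at chr15:75085503-75087045, the widest of the 6, had 934 ± 106 CPM in sgPrdm12 and 2582 ± 157 CPM in sgNTC (SD, n = 2 each) and a value of -1.47 (SE 0.24).

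The region at the end of Aida, a gene named for an axin interactor, at chr1:183299134-183299592, had 645 ± 67 CPM in sgPrdm12 and 1361 ± 5.85 CPM in sgNTC (SD, n = 2 each) and a value of -1.08 (SE 0.24, edgeR adjusted p = 0.0102). Kctd16, which encodes an auxiliary subunit of GABA-B receptors, on chromosome 18, had a region with 402 ± 71.4 CPM in sgPrdm12 and 1025 ± 60.5 CPM in sgNTC (SD, n = 2 each) and a value of -1.35. The sixth lies 2430 bp from the pseudogene Rps2-ps5, at chr14:69161987-69162237, and held 671 and 34 counts in sgPrdm12, against 453 and 461 in sgNTC, which is 238 and 22.2 CPM in sgPrdm12 and 660.2 and 588 CPM in sgNTC. There the sgPrdm12 libraries differed widely, with -1.47 within batch 1 and -4.65 within batch 2, and the value was -2.23 (SE 0.36, edgeR adjusted p = 1.18e-05). Gm33838, Chl1, Kctd16, Aida and the chromosome 15 region failed the threshold on removal of either sgNTC library, and Rps2-ps5 did not pass without sgNTC-1 or by DESeq2's Wald test or limma-voom. With the authors' constants Kctd16, Aida and the chromosome 15 region did not pass. Aida was also lost with DESeq2 size factors, total counts and TMM without the 10 most covered regions, and passed in 6 of the 12 alternative fits. Without the 6 most covered isolated regions, 3 isolated regions were higher and 17 lower of 1289 tested, and their median was -0.23. Repeats were not annotated here, and reads from repeated sequence can be split between copies, so the levels at these 6 are uncertain.

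Gene bodies held 11 of the 26 isolated regions that passed. Unc5c, which encodes a netrin receptor, had a region at chr3:141770674-141771040 with 12 and 8 counts in sgPrdm12, against 32 and 16 in sgNTC, which is 4.25 and 5.21 CPM in sgPrdm12 and 46.6 and 20.4 CPM in sgNTC, and a value of -2.81 (SE 0.56, edgeR adjusted p = 0.00133). Npsr1, the neuropeptide S receptor gene, had a region at chr9:24156637-24156986 with 10 and 6 counts in sgPrdm12, against 15 and 29 in sgNTC, which is 3.54 and 3.91 CPM in sgPrdm12 and 21.9 and 37 CPM in sgNTC, and a value of -2.97 (SE 0.60, edgeR adjusted p = 0.00177). Sv2b, a synaptic vesicle protein gene, had 16 and 15 counts in sgPrdm12, against 22 and 23 in sgNTC, and a value of -2.03 (SE 0.52, edgeR adjusted p = 0.0396). Each rests on at most 32 counts in every library. Unc5c did not pass without sgNTC-1, Npsr1 not without sgNTC-2, and both were lost by limma-voom. Sv2b was lost without sgNTC-1, sgNTC-2 or sgPrdm12-1. Its call was also lost with DESeq2 size factors, total counts, the authors' constants and TMM without the 10 most covered regions. DESeq2's Wald test gave Unc5c, Npsr1 and Sv2b no adjusted p.

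The remaining lower regions lay in genes of several kinds. Jarid2, a Polycomb partner gene, had a region of 436 bp with 80 and 61 counts in sgPrdm12, against 161 and 54 in sgNTC, which is 28.4 and 39.7 CPM in sgPrdm12 and 235 and 68.9 CPM in sgNTC. Its sgNTC libraries differed more than the sgPrdm12 libraries did, and the value was -2.99 within batch 1 and -0.77 within batch 2. Camk1d, a calcium/calmodulin-dependent kinase gene, had a region at chr2:5379070-5379376 with 132 and 104 counts in sgPrdm12, against 214 and 151 in sgNTC, which is 46.8 and 67.8 CPM in sgPrdm12 and 312 and 193 CPM in sgNTC, and a value of -2.15 (SE 0.31, edgeR adjusted p = 8.22e-07). Both sgPrdm12 libraries lay below both sgNTC libraries there. Filip1l, named for a filamin A interacting protein, had 206 and 158 counts in sgPrdm12, against 186 and 130 in sgNTC, and a value of -1.32 (SE 0.30, edgeR adjusted p = 0.0107). Kctd9, of the KCTD family, had a region at its gene end with 67 and 26 counts in sgPrdm12, against 34 and 55 in sgNTC, and a value of -1.53 (SE 0.37, edgeR adjusted p = 0.0223). In the lncRNA gene Gm30821, on chromosome 18, the region held 129 and 82 counts in sgPrdm12, against 194 and 126 in sgNTC, and the value was -2.16. A region with no gene within 5 kb, at chr7:92529440-92529670, had 4 and 5 counts in sgPrdm12, against 25 and 10 in sgNTC, and a value of -3.44 (SE 0.74). Camk1d and Gm30821 did not pass without sgNTC-1. Jarid2 and the chromosome 7 region did not pass without it either, nor by limma-voom. By DESeq2's Wald test Jarid2 did not pass and the chromosome 7 region had no adjusted p. Filip1l and Kctd9 did not pass when either sgNTC-1 or sgNTC-2 was left out. Kctd9 was also lost without sgPrdm12-2 and by limma-voom. Both were lost with DESeq2 size factors, total counts, the authors' constants and TMM without the 10 most covered regions. Filip1l passed in 6 and Kctd9 in 4 of the 12 alternative fits.

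**Figure D4:**
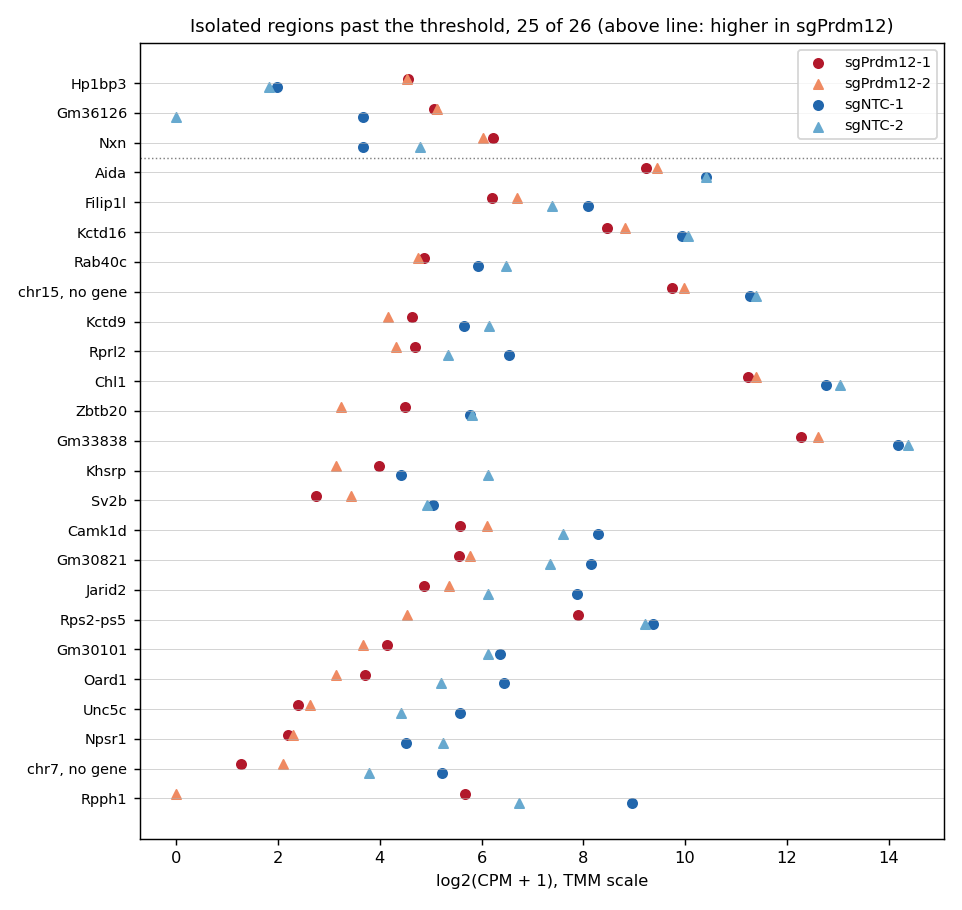
CPM on the TMM scale, as log2(CPM + 1), of 25 of the 26 isolated regions that passed the test, with sgPrdm12 libraries in red and orange (circle replicate 1, triangle replicate 2) and sgNTC libraries in dark and light blue. The 3 regions above the dotted line were higher and those below it lower in sgPrdm12; in no row do the libraries of the groups overlap.

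Only 3 isolated regions were higher in sgPrdm12. Nxn, the nucleoredoxin gene, had a region of 1078 bp at chr11:76296174-76297252 with 208 and 99 counts in sgPrdm12, against 8 and 21 in sgNTC, which is 73.7 and 64.5 CPM in sgPrdm12 and 11.7 and 26.8 CPM in sgNTC. Both sgPrdm12 libraries stood above both sgNTC libraries, and the value was 1.82 (SE 0.39, edgeR adjusted p = 0.00529). Hp1bp3, which encodes a protein that binds heterochromatin protein 1, had a region at chr4:138230778-138231426 with 63 and 34 counts in sgPrdm12, against 2 and 2 in sgNTC, which is 22.3 and 22.2 CPM in sgPrdm12 and 2.91 and 2.55 CPM in sgNTC. Its value was 2.99 (SE 0.74, edgeR adjusted p = 0.0258), with 2.47 within batch 1 and 2.58 within batch 2. A region 925 bp from the lncRNA gene Gm36126, at chr19:29685163-29685710, had 91 and 52 counts in sgPrdm12, against 8 and 0 in sgNTC, which is 32.3 and 33.9 CPM in sgPrdm12 and 11.7 and 0 CPM in sgNTC, and a value of 2.56 (SE 0.60, edgeR adjusted p = 0.0143). At Hp1bp3 and Gm36126 the sgNTC libraries held 8 counts or fewer, so the size of the difference is poorly fixed. Nxn failed the threshold on removal of either sgNTC library, Gm36126 did not pass without sgNTC-2 or sgPrdm12-2, and Hp1bp3 did not pass whichever of the 4 libraries was left out. By limma-voom 0 of the 3 passed. By DESeq2's Wald test Nxn passed, and the other 2 had no adjusted p. Hp1bp3 and Gm36126 were also lost with DESeq2 size factors and with TMM without the 10 most covered regions. Of the 11 alternative fits with an adjusted p, Gm36126 passed in 6 and Hp1bp3 in 4.

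Below the threshold, among higher regions whose groups did not overlap and whose mean was at least 20 counts, the smallest p belonged to Slc10a7, a gene of the solute carrier family, Map4k3, a kinase gene known in T cell receptor signalling, and an intergenic region. Slc10a7 had 70 and 52 counts in sgPrdm12, against 4 and 7 in sgNTC, and a value of 1.95 (SE 0.55, edgeR adjusted p = 0.0976). Map4k3 had 91 and 50 counts in sgPrdm12, against 6 and 11 in sgNTC, and a value of 1.49 (SE 0.48, edgeR adjusted p = 0.237). The intergenic region, at chr19:5315545-5316266, had 130 and 78 counts in sgPrdm12, against 16 and 14 in sgNTC, and a value of 1.23 (SE 0.40, edgeR adjusted p = 0.239). That both sgPrdm12 libraries stood above both sgNTC libraries in all 3 was a condition of this choice.

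By class, the median of tested isolated regions was -0.53 at gene ends (0 higher, 8 lower of 228), -0.23 in gene bodies (2 higher, 9 lower of 456), -0.19 in other genes (0 higher, 3 lower of 111) and -0.16 between genes (1 higher, 3 lower of 500). The other regions had -0.08, 0.03, 0.01 and -0.01 in these classes. The shares called in both directions were 3.51%, 2.41%, 2.70% and 0.8% in isolated regions. In the other regions they were 1.23%, 0.402%, 0.425% and 0.363%, and over all regions tested 0.487%. In every class the isolated median was the lower one, and the gap was widest at gene ends.

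Gene lists were described by counts, with the share of all tested regions called, 0.487%, as the background. Zinc finger genes, whose clusters are known for the mark, had 17 isolated regions with a median of -0.29 with no filter, and 0 higher and 1 lower of 14 tested, the one in Zbtb20, which DESeq2's Wald test also called and limma-voom did not. The member with the next smallest p, Zfp251, had 44 and 19 counts in sgPrdm12, against 6 and 1 in sgNTC, and a value of 1.52 (SE 0.78, edgeR adjusted p = 0.79). Genes of synapses and neural adhesion had 26 isolated regions in 19 genes, with 0 higher and 2 lower of 20 tested, in Chl1 and Unc5c, and a median of -0.21. DESeq2's Wald test and limma-voom each called Chl1. Unc5c did not pass by limma-voom and had no adjusted p from DESeq2. Small and structured RNA genes had 15 isolated regions, with 0 higher and 2 lower of 13 tested, Rpph1 and Rprl2. DESeq2's Wald test called 1 lower and limma-voom 0. All 15 lay below 0, with a median of -0.91, and in 9 (60%) the groups did not overlap, beside 14.2% of all regions of the table with sgPrdm12 lower. Predicted loci had 254, with 1 higher and 3 lower of 193 tested and a median of -0.14. DESeq2's Wald test and limma-voom called 0 higher and 3 lower.

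Other lists held few isolated regions. For H3K9 methylation and heterochromatin there were 2, in Hp1bp3, which was higher by edgeR, and Setdb2, a gene of the H3K9 methyltransferase family, with 34 and 19 counts in sgPrdm12, against 4 and 5 in sgNTC, and a value of 0.99 (SE 0.76, edgeR adjusted p = 0.956). Limma-voom called 0 of them, DESeq2 gave neither an adjusted p, and Hp1bp3 passed in 4 of the 11 alternative fits with an adjusted p. The Polycomb list had 1, in Jarid2, which was lower by edgeR and did not pass by DESeq2's Wald test or limma-voom. Ion channel genes had 15, with 0 of 12 tested passing by edgeR or limma-voom, no adjusted p from DESeq2, and 2 at an unadjusted p under 0.05 by edgeR. These 2 were Trpm4, a cation channel gene, at 1.10 and Cacna1d, a calcium channel gene, at -1.20. Stress and cell cycle genes had 9, of which Tob1 (above) and Cdk18, a cyclin-dependent kinase gene, at 0.71 had the smallest p. Membership followed the gene a region was named after, not the promoter window it overlapped. The region at the Dnajb9 promoter (above), with a smaller p, was therefore not in this list. Developmental regulators had 5, with Pax8 at -1.19 and Foxn4 at -0.50. Olfactory receptor genes had 4, with Olfr19 at -0.63 and Olfr1415 at -0.25, and vomeronasal and taste receptor genes had 2, neither tested. None of the regions named here from the last 5 lists passed.

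Of the genes of T cell receptor signalling and lymphocyte regulation, 3 had an isolated region and 0 passed by edgeR or limma-voom, with 1 at an unadjusted p under 0.05 by each. DESeq2 gave the 3 no adjusted p. In Zeb2, a transcription factor gene of effector CD8+ T cells, the region at chr2:45108518-45108787 held 31 and 14 counts in sgPrdm12, against 24 and 21 in sgNTC, which is 11 and 9.12 CPM in sgPrdm12 and 35 and 26.8 CPM in sgNTC. Both sgPrdm12 libraries were below both sgNTC libraries, with a value of -1.59 (SE 0.48, edgeR adjusted p = 0.169). Near Cd4, the co-receptor gene that CD8+ T cells keep silent, the region at chr6:124888922-124889225 lay 675 bp from the gene span and held 22 and 28 counts in sgPrdm12, against 3 and 8 in sgNTC, which is 7.80 and 18.2 CPM in sgPrdm12 and 4.37 and 10.2 CPM in sgNTC. The groups overlapped there, and the value was 0.77 (SE 0.73, edgeR adjusted p = 0.988). A region was present within 5 kb of 0 of 8 CD8+ T cell markers, 0 of 5 B cell markers, 1 of 5 myeloid, 1 of 5 NK and innate, 1 of 4 erythroid and 1 of 3 CD4+ T cell markers, the last being Cd4. The mark does not measure expression, so these counts do not check the labelled cell type.

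The 3 isolated regions farthest from any other region did not pass. The region in the lncRNA gene Gm34960, at chr5:73803808-73804336, was 944.6 kb from the nearest other region and had 38 and 41 counts in sgPrdm12, against 24 and 13 in sgNTC. Its batches differed in sign, with -1.29 within batch 1 and 0.65 within batch 2. An intergenic region at chr3:85514865-85515245, 721.8 kb from the nearest, had 34 and 18 counts in sgPrdm12, against 14 and 14 in sgNTC, and a value of -0.68 (SE 0.54, edgeR adjusted p = 0.962). The region in St3gal1, a sialyltransferase gene, at chr15:67158815-67159380 and 703.2 kb from the nearest, had 64 and 36 counts in sgPrdm12, against 11 and 7 in sgNTC, and a value of 0.90 (SE 0.52, edgeR adjusted p = 0.862).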

How the data were processed

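H3K9me3 CUT&Tag was measured in 2 sgPrdm12 and 2 sgNTC libraries of mouse CD8+ T cells, and the IgG library was not analysed here. The authors deposited 1 table of regions with whole-number read counts per library, not normalized, and a normalized signal. In each library the deposited signal equals the count multiplied by a fixed constant, and it was used only as an alternative scale, called the authors' constants. Per the submitters' processing notes, MACS2, DiffBind, Bowtie2 and Trimmomatic were used, with no version given. The sources used here do not give how regions were called and merged or whether duplicates were removed. If the deeper sgPrdm12 libraries weighed more in that step, the set would favour regions high in them. Whether a region counts as isolated rests on the same set, so it may depend on that step too.

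The notes name GRCm39. Judged by chromosome lengths taken from memory, 44 regions on 7 autosomes would end outside GRCm39 and 0 outside GRCm38. GRCm38 was therefore used. Coordinates are those of the table, whose starts may count from 0 or from 1. Genes and promoter windows are those of the RefSeq tables for GRCm38.p6. Regions were named after an overlapping gene, with protein-coding genes preferred, and otherwise after the closest gene up to 5 kb away.

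Distances between regions run from the end of a region to the start of the next. Counts of the whole table were filtered with filterByExpr, scaled by TMM and tested two-sided with the quasi-likelihood test of edgeR 4.0.16 in R 4.3.3 with limma 3.58.1, with Benjamini-Hochberg adjustment over all 37390 regions tested and no block. Of the isolated regions 1295 passed the filter and 434 did not. Medians said to be with no filter cover all members. The SE of a region is the size of its log2 fold change over the square root of its quasi-F value. Values within a batch are differences of log2 CPM with a prior count of 2. The steps were tested on simulated counts. Shares of counts have exact (Clopper-Pearson) 95% binomial intervals, and the limit for a count of 0 is 3 counts.

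Per the labels, libraries with the same replicate number share a batch, and the fit with this block is an alternative. Over all regions, the difference between replicates 1 and 2 in sgPrdm12 and that in sgNTC correlated at -0.0119 (-0.0147 in isolated regions). Other alternatives were DESeq2 size factors, total counts, the authors' constants, TMM without the 10 most covered regions, no filter, DESeq2 1.42.0, limma-voom, each library left out, an adjusted p of 0.1 and isolation distances of 50 and 200 kb. Leaving out promoter regions and the values within batches were added after seeing the data.

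Members and lists were chosen with earlier results of these data known. Named regions are the 12 highest and 12 lowest log2 fold changes among those that passed, and up to 6 with the smallest p in each direction. In these 6 the groups did not overlap and the mean was at least 20 counts. The 6 most covered regions, the 3 most isolated and the 2 smallest p of each gene list were named too. For 1 lower region no name or value is reported here.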

Additional observations from a re-analysis of the deposited data

How the results depend on the processing

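Over the 44 named regions, 547 values with an adjusted p under alternatives gave 434 on the same side of the threshold, 100 that no longer passed, 13 that newly passed and 0 called values of opposite sign. Among named regions that did not pass, 5 turned sign on the scale of the authors' constants and 3 on that of total counts. DESeq2 gave 119 of the 1729 isolated regions an adjusted p. Of the 26 that passed, 16 also passed in at least 9 of the 12 alternative fits. The count of higher isolated regions, 3, became 1 with DESeq2 size factors, 25 with total counts, 203 with the authors' constants, 1 with TMM without the 10 most covered regions, 1 with DESeq2's Wald test and 0 with limma-voom. It was 5 at an isolation distance of 50 kb and 1 at 200 kb. The count of lower regions, 23, became 15 with total counts, 13 with the authors' constants, 15 with TMM without the 10 most covered regions, 13 with limma-voom, 39 at 50 kb and 9 at 200 kb. Leaving out a library gave 0 to 2 higher and 4 to 27 lower regions. The median of -0.24 became 0.33 when total counts set the scale and 0.77 when the authors' constants did. The number of named regions that passed, 26, became 17 with DESeq2 size factors, 16 with the authors' constants, 16 with TMM without the 10 most covered regions, 17 with DESeq2's Wald test, which gave 6 of them no adjusted p, and 13 with limma-voom, and 5 to 24 with a library left out. These scales use the same counts, and the cause of the other differences was not tested.

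The share of counts in isolated regions was 8.19% and 7.79% in sgPrdm12, against 8.04% and 7.56% in sgNTC, at 50 kb. It was 1.46% and 1.46%, against 2.38% and 2.38%, at 200 kb. With totals without the 10 most covered regions it was 3.73% and 3.69% in sgPrdm12, against 5.11% and 5.13% in sgNTC. With the replicate block, which pairs libraries by batch, 3 isolated regions were higher and 25 lower, the median was -0.23 and all 26 named regions kept their call. Leaving out a library leaves a group with 1 sample, which is assumed to vary like the other group. Median counts of 7 and 8 per isolated region in sgNTC limit the precision of single values.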
